A study of Mus musculus with 17 samples.

Results

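The genes for tumor necrosis factor (Tnf), interleukin 6 (Il6) and the IL-12 family subunits Il12a, Il12b, Il23a and Il27 were followed across 17 RNA-seq libraries of mouse bone marrow-derived macrophages. These 6 genes were taken by name from a table of 55401 gene identifiers. Each matched 1 identifier, and each had a count in at least 1 library. Macrophages of the C57BL/6J strain formed 4 groups: control cells (3 libraries), cells kept in B16F10 melanoma conditioned medium (3 libraries), and cells in the same medium supplemented with KCl (3 libraries) or with NaCl (2 libraries). The remaining 6 libraries were of cells whose conditioned medium held KCl labelled isotonic, either Kcnj2f/f (floxed, 3 libraries) or Lyz2-Cre-Kcnj2f/f (named the Kcnj2 knockout here, 3 libraries). In the latter, Cre is driven from Lyz2, a gene active in macrophages and other myeloid cells. Cells were grown in DMEM with serum, treatment lasted 6 h, and the final salt concentration was 40 mM. What the control cells received, how the isotonic medium was made, and the ages of the mice are not stated. No C57BL/6J library was made isotonic and no floxed library received another medium. The comparisons ask how tumor-conditioned medium changes these cytokine genes and whether added potassium or sodium salt alters that response. They also ask whether the genes differ between Kcnj2 knockout and floxed cells in isotonic KCl. Kcnj2 encodes an inward-rectifier potassium channel. Whether it is needed for the response to the medium or to the salts cannot be asked with these libraries.

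TNF and IL-6 are secreted by macrophages within hours of an inflammatory stimulus. TNF is made as a membrane protein that is cut from the cell surface, and IL-6 acts through its own receptor chain and a shared signalling chain. IL-12 family cytokines are pairs of subunits from separate genes. Il12a encodes p35 and Il12b encodes p40, which together form IL-12, and p40 with the product of Il23a (p19) forms IL-23. Il27 encodes the p28 subunit, which pairs with the product of Ebi3 to form IL-27. IL-12 and IL-23 act on T and NK cells, where they favour interferon gamma and interleukin 17 responses. These are measurements of mRNA in bulk, in which fewer producing cells and less RNA per cell cannot be told apart.

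Positions are those of GRCm38. Tnf lies at chr17:35199381-35202007 on the minus strand, Il6 at chr5:30013114-30019981 on the plus strand, Il12a at chr3:68690644-68698547 on the plus strand and Il12b at chr11:44400063-44414033 on the plus strand. Il23a lies at chr10:128296139-128298752 and Il27 at chr7:126589010-126594941, both on the minus strand. All 6 are annotated as protein-coding. Promoters of 4 of the 6 genes were matched in the RefSeq table (GRCm38.p6): Tnf, Il6, Il12a and Il12b. The 250 bases before the transcription start of these genes, and of Ebi3, are printed because their transcripts responded differently to salt, as described further on. Il12a has another listed start, whose promoter also held none of the motifs below. Capitals mark matches to any of 6 motifs searched on both strands: the kappa-B motif, the tonicity element TonE and the interferon-stimulated element ISRE (these by name), C/EBP (TTGCNNAA), AP-1 (TGANTCA) and the TATA box (TATAAA). None of the printed matches overlapped another.
Tnf (chr17:35202008-35202257, minus strand): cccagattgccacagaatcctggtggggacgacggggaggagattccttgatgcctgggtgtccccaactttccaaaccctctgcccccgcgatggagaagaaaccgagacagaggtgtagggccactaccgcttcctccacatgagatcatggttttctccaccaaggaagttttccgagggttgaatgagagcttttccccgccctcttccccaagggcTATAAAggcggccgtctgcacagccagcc
Il6 (chr5:30012864-30013113, plus strand): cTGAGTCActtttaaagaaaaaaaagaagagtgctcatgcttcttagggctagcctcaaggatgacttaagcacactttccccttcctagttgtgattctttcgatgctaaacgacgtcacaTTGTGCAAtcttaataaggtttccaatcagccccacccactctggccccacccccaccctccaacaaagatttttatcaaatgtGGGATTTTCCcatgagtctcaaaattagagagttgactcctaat
Il12a (chr3:68690394-68690643, plus strand): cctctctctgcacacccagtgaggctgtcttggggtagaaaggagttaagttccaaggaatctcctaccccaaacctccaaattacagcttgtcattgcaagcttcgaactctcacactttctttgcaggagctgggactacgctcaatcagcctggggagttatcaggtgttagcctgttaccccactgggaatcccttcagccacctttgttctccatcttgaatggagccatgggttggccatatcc
Il12b (chr11:44399813-44400062, plus strand): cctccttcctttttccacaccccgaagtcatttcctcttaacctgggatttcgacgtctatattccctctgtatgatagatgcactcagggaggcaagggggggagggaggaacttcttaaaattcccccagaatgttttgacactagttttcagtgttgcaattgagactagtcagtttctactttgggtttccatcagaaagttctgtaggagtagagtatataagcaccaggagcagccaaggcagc
Ebi3 (chr17:55952373-55952622, plus strand): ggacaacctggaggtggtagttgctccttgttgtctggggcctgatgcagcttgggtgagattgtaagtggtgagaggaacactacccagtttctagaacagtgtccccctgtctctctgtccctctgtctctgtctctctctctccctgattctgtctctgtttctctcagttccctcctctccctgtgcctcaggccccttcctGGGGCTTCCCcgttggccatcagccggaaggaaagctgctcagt

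The Tnf stretch held a TATA box 29 to 24 bases before the start. The Il6 stretch held a kappa-B match 44 to 35 bases before the start, a C/EBP match on the minus strand at 128 to 121 bases and an AP-1 match at 249 to 243 bases. The Ebi3 stretch held a kappa-B match, also 44 to 35 bases before the start. No motif of the 6 matched in the Il12a or Il12b stretch. Among 32536 promoter stretches of the same length, 3.92% held a kappa-B match, 9.57% a C/EBP match, 6.73% an AP-1 match, 12.3% a TATA box, 2.98% an ISRE and 4.32% a TonE. A match describes the letters in this window, and binding was not measured. A link between these matches and the responses to salt was not tested.

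Library totals ran from 13503869 to 19391623 counts. Levels are given as CPM, the count of a gene over the total of its library, after TMM scaling, which estimates a factor per library from most genes. The floor of 3 counts, the limit that a count of 0 allows, was at most 0.268 CPM. The macrophage markers Lyz2, Cd68, Csf1r and Adgre1 were all expressed, and the summed level of 8 macrophage markers was 25364 to 29249 CPM in every group but the knockout, with most of it from Lyz2. In the knockout it was 12399 to 13564 CPM, since Lyz2, the gene that carries Cre, was at 7171 to 8376 CPM against 19813 to 24456 CPM in floxed cells. Kcnj2, the targeted gene, was at 153 ± 17.6 CPM (SD, n = 3) in floxed and 24.5 ± 4.86 CPM (n = 3) in knockout libraries. All 6 melanoma markers were under 1 CPM in every library, and Tyr and Dct were at 0. Libraries also differed in how their levels moved with transcript length. The slope of log2 level on log2 exon length, relative to the mean of all libraries, was 0.0309 to 0.0955 in control, conditioned medium and NaCl libraries, −0.0867 to 0.0015 with KCl and −0.134 to 0.0922 in isotonic libraries. A fit with this slope as a covariate was among the alternatives.

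Conditioned medium raised every member that could be tested. Tnf, Il6, Il12a, Il12b and Il27 passed the filter on low counts and all 5 rose, against 27.2% of 14519 genes called higher at an adjusted p under 0.05 (26.4% were called lower and 53.5% in either direction). In control libraries Il12a had at most 2 counts and Il12b at most 7, so both passed the filter through treated groups. For Il12a and Il12b a rise was the only direction that could well be called. On library totals without scaling factors 24.85% of the called genes were higher, in place of 50.75%, and the 5 members were still called higher. Their median log2 fold change was 6.75, against −0.04 over all genes tested. Il23a stayed near the detection limit.

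Tnf was at 23.1, 24.3 and 25.9 CPM in the control libraries and at 2676, 2663 and 2619 CPM in conditioned medium. The groups lay far apart and each was tight. The log2 fold change was 6.75 ± 0.09 (SE), a 108-fold rise (edgeR, adjusted p = 3.7e-15). Il6 was at 0.551, 0.594 and 0.658 CPM in control libraries and at 108, 102 and 89.6 CPM in conditioned medium, a log2 fold change of 7.35 ± 0.37 (SE; edgeR, adjusted p = 1.2e-08). Both inflammatory cytokine genes thus went from low to high in all 3 libraries.

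Among the IL-12 family genes, Il12a had 1, 1 and 2 counts in the control libraries and rose to 12.9, 12.1 and 14.7 CPM in conditioned medium. With so few control counts its fold is uncertain: the ratio of pooled counts was 231 (95% interval 89.8 to 850, exact, counting error only), and the fitted log2 fold change was 7.68 ± 0.35 (SE). Il12b was at 0.0459, 0.254 and 0.288 CPM in control and at 7.02, 9.60 and 9.95 CPM in conditioned medium. Its pooled ratio was 44.3 (95% interval 26.1 to 81.6) and its log2 fold change 5.41 ± 0.32 (SE). No p-value is given for Il12a or Il12b, since both passed the filter through treated groups. Il27 went from 0.459, 0.636 and 0.493 CPM to 28.1, 25.4 and 26.2 CPM, a log2 fold change of 5.62 ± 0.17 (SE; edgeR, adjusted p = 9.3e-12). For none of these genes did the groups overlap.

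Ebi3, the partner subunit of Il27, was already present in control cells at 27.8, 28.2 and 29.9 CPM. It reached 119, 106 and 115 CPM in conditioned medium, with no overlap. This was a log2 fold change of 1.98 ± 0.11 (SE; edgeR, adjusted p = 4.3e-09). Per kilobase of exon, Ebi3 stood at 48.9 ± 8.29 times the level of Il27 in control cells (SD, n = 3) and at 3.78 ± 0.11 times in conditioned medium (n = 3).

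Il23a had 0, 0 and 1 counts in control libraries and 4, 10 and 5 counts in conditioned medium. The pooled ratio was 26.9 with a 95% interval of 4.27 to 1117 (exact, counting error only). It did not pass the low-count filter of the fit over C57BL/6J libraries. Without the filter its adjusted p was 0.0038 (edgeR), and with DESeq2, a second count model, it was 0.0049.

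**Figure D1:**
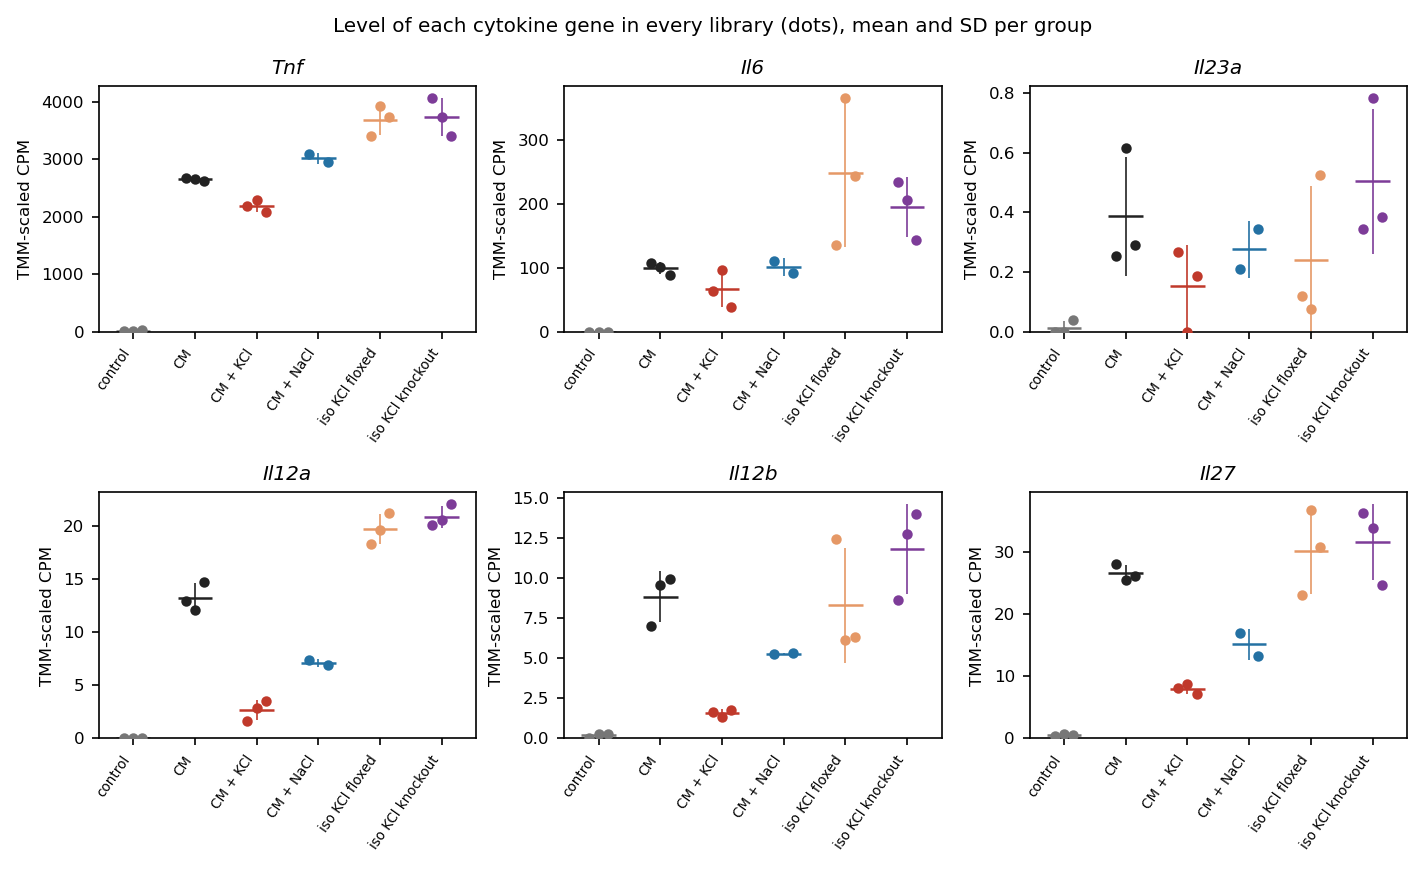
TMM-scaled CPM (y axis, from 0, a scale per gene) of the 6 cytokine genes in each library (dots) by group (CM, conditioned medium; iso, isotonic), with the group mean (horizontal line) and SD (vertical line). Il12a, Il12b and Il27 with KCl sit at 1.34 to 8.74 CPM, under all other libraries except the controls, while Tnf with KCl stays at 2088 to 2295 CPM.

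On the scale of CPM per kilobase of exon, which allows genes to be compared, Tnf was the highest of the 6 in conditioned medium at 1618 ± 18.3 (SD, n = 3). Il6 followed at 41.0, Il27 at 26.0, Il12a at 7.78, Il12b at 4.50 and Il23a at 0.172. Ebi3 was at 98.2 on this scale. The p40 gene Il12b, shared by IL-12 and IL-23, thus stood below the p35 gene Il12a at the RNA level, at 0.58 ± 0.11 of its level per length (SD, n = 3; 0.45 with the longest transcript as length).

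**Figure D2:**
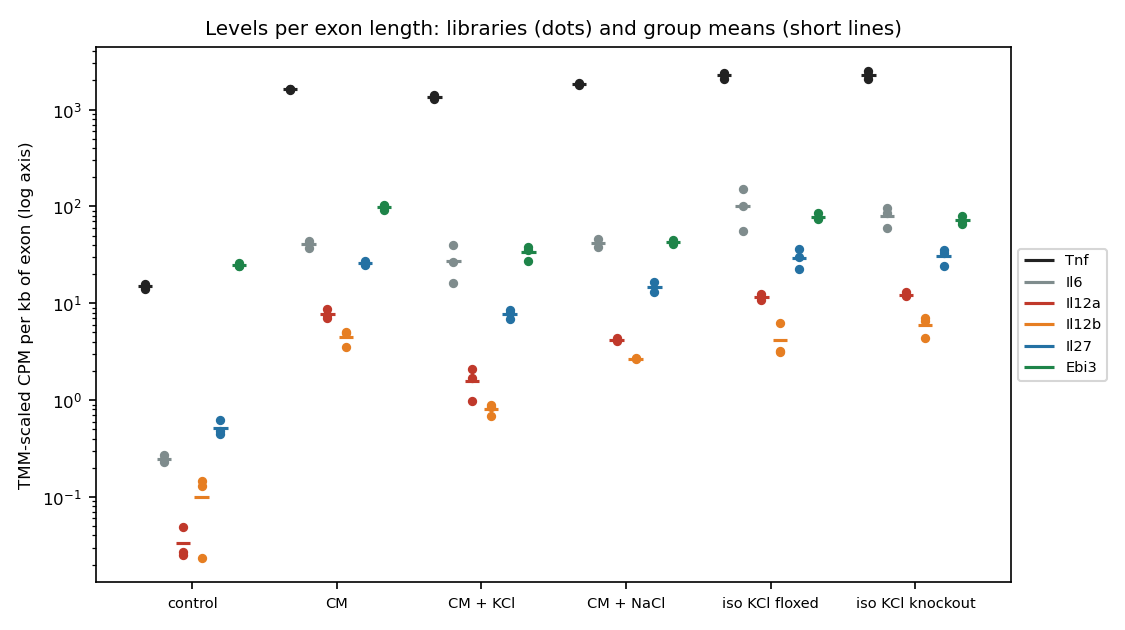
CPM per kilobase of exon (log axis) of 5 members and Ebi3 in each library (dots), with group means (short lines), by group. In conditioned medium Tnf is at 1618 and Il12b at 4.50, and with KCl the levels of Il12a, Il12b, Il27 and Ebi3 move down while Tnf and Il6 move less.

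KCl added to conditioned medium lowered the IL-12 family genes several-fold and Tnf by little. All 5 tested members fell, against 27.4% of 14519 genes called lower (26.6% were called higher and 53.9% in either direction). Their median log2 fold change was −1.75, against −0.01 over all genes. In the reported fit the fall was largest for Il12b and Il12a, then Il27, with Il6 and Tnf last. With the length slope as a covariate the order was Il27 (−2.15), Il12b (−1.92), Il12a (−1.83), Il6 (−1.82) and Tnf (−0.36).

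Il12a was at 1.68, 2.86 and 3.56 CPM with KCl, against 12.1 to 14.7 CPM in conditioned medium alone. The groups did not overlap, and all KCl libraries were above the controls. Il12a was 4.92-fold lower, a log2 fold change of −2.30 (95% interval −2.75 to −1.85; edgeR, adjusted p = 1.2e-06). Il12b was at 1.68, 1.34 and 1.75 CPM with KCl, also below every conditioned medium library (7.02 to 9.95 CPM). It was 5.53-fold lower, a log2 fold change of −2.47 (95% interval −3.00 to −1.94; edgeR, adjusted p = 2.7e-06). The ratio of Il12b to Il12a per length was 0.56 ± 0.26 with KCl (SD, n = 3), within the spread of the ratio in conditioned medium, 0.58 ± 0.11.

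Il27 was at 8.06, 8.74 and 7.07 CPM with KCl, under the 25.4 to 28.1 CPM of conditioned medium alone. It was 3.37-fold lower, a log2 fold change of −1.75 (95% interval −2.03 to −1.48; edgeR, adjusted p = 1.9e-07). Its partner Ebi3 was at 41.3, 31.5 and 43.5 CPM, against 106 to 119 CPM. Ebi3 was 2.93-fold lower, a log2 fold change of −1.55 ± 0.11 (SE; edgeR, adjusted p = 1.6e-07). With KCl, Ebi3 lay only a little above its control level of 28.7 ± 1.11 CPM.

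Tnf was at 2197, 2295 and 2088 CPM with KCl, below the 2619 to 2676 CPM of conditioned medium. The groups were apart but close: Tnf was 1.22-fold lower, a log2 fold change of −0.28 (95% interval −0.43 to −0.14; edgeR, adjusted p = 0.0028). Il6 was at 64.5, 96.4 and 39.4 CPM with KCl, against 108, 102 and 89.6 CPM, so that the groups overlapped. Its log2 fold change was −0.60 (95% interval −1.11 to −0.08; edgeR, adjusted p = 0.0495). This call rested on single libraries: the adjusted p was 0.0966 without KCl replicate 1, 0.0547 without KCl replicate 3, where the fold change was −0.33, and 0.117, 0.0933 and 0.0553 without conditioned medium replicates 1, 2 and 3. It was also lost with RLE scaling factors (0.0648) and from both groups alone (0.0853). Without KCl replicate 2 the fold change was −0.94, with an adjusted p of 0.000385. With the length slope as a covariate it was −1.82, with an adjusted p of 2.5e-07. Over the edgeR and DESeq2 alternatives other than leaving out a library, the adjusted p ran from 9.9e-08 to 0.0853. The interval for Il6 does not reach those of Il12a, Il12b or Il27; the difference between genes was not tested.

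Relative to Tnf in the same library, per length, Il12a stood at 4.81 ± 0.55 per 1000 in conditioned medium and at 1.19 ± 0.45 with KCl (SD, n = 3 each). The 3 values of each group did not overlap. The ratio of Il12b fell from 2.78 to 0.607 per 1000. Il27 went from 16.1 to 5.81 per 1000, and Il6 from 25.3 to 20.3 per 1000. These ratios are free of the scaling between libraries. Il23a had 4, 0 and 3 counts with KCl against 4, 10 and 5 counts, which was not distinguishable at this depth (pooled ratio 0.431, 95% interval 0.153 to 1.07).

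Some cell type markers also moved with the salts. Of 8 macrophage markers, 4 were called lower and 1 higher with KCl, against 27.4% and 26.6% of all genes (53.9% in either direction). With NaCl 2 were called lower and 0 higher, against 14.9% and 13.7% of all genes (28.7% in either direction). Adgre1, for example, went from 2267 to 2449 CPM in conditioned medium to 1131 to 1335 CPM in the KCl libraries, with the NaCl libraries between (1683 to 1706 CPM). The summed level of 8 dendritic cell markers was 17.6 to 25.2 CPM with KCl, 8.30 to 9.70 CPM with NaCl and 3.29 to 5.66 CPM in conditioned medium. With KCl 2 of 4 tested dendritic markers were called higher and 0 lower, where 26.6% of all genes were called higher and 27.4% lower. The sum rested mostly on Xcr1, at 14.5 to 21.0 CPM with KCl; Clec9a was at 0.605 to 0.813 CPM against 0.0632 to 0.349 CPM, and 5 of the 8 were under 1 CPM in every library. The neutrophil list was at 37.7 to 44.5 CPM with KCl, 57.8 to 58.0 CPM with NaCl and 159 to 173 CPM in conditioned medium, through Csf3r, with Ly6g, Elane and Cxcr2 under 1 CPM and Retnlg at 0. Stromal markers summed to 285 to 452 CPM with KCl, 464 to 519 CPM with NaCl and 481 to 530 CPM in conditioned medium. In isotonic KCl the stromal sum was 237 to 479 CPM in floxed and 166 to 229 CPM in knockout libraries. The part of these cell type markers in the cytokine results was not tested.

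NaCl gave a smaller drop in the same IL-12 family genes. Of the 5 members tested, 3 were called lower (Il12a, Il12b and Il27) and none higher, against 14.9% and 13.7% of all genes (28.7% in either direction). The median over the members was −0.74, against −0.01 over all genes. Csf3r, of the neutrophil list, was at 34.3 to 38.3 CPM with NaCl against 141 to 157 CPM, and its part was not tested. Il12a was at 7.39 and 6.87 CPM with NaCl, below all conditioned medium libraries and above all KCl libraries. Its log2 fold change against conditioned medium was −0.88 ± 0.21 (SE; edgeR, adjusted p = 0.0057), and without NaCl replicate 2 the adjusted p was 0.0671. Il27 was at 16.9 and 13.3 CPM, likewise between the other groups, with a log2 fold change of −0.80 ± 0.14 (SE; edgeR, adjusted p = 6.1e-04).

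Il12b was at 5.24 and 5.32 CPM with NaCl, under the conditioned medium range. Its log2 fold change was −0.74 ± 0.23 (SE; edgeR, adjusted p = 0.029). The call did not hold without either NaCl library (adjusted p = 0.155 without replicate 1 and 0.145 without replicate 2) or without conditioned medium replicates 2 or 3 (0.0983 and 0.105). It was also lost with the replicate number as a block (−0.62, adjusted p = 0.0557). Ebi3 was at 52.5 and 47.7 CPM, and its log2 fold change of −1.17 ± 0.12 (SE; edgeR, adjusted p = 1.8e-05) was the largest of the IL-12 family genes in this comparison.

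Tnf was at 3087 and 2956 CPM with NaCl, above every conditioned medium library. Its log2 fold change of 0.19 ± 0.07 (SE) gave an adjusted p of 0.067 with edgeR and 0.0117 with DESeq2. It was called in 2 more of the settings tried: 7.2e-04 from the libraries of both groups alone and 0.0069 with the length slope as a covariate. Il6 was at 111 and 91.6 CPM, overlapping conditioned medium, with a log2 fold change of 0.03 (95% interval −0.53 to 0.60). With the slope covariate Il6 was at 0.31, with an adjusted p of 0.0188. Il23a had 4 and 6 counts.

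Set against NaCl directly, KCl gave lower levels of 4 of 5 tested members: Tnf, Il12a, Il12b and Il27. Over all genes 16.2% were called lower, 15.4% higher and 31.6% in either direction, and the medians were −0.95 over the members and −0.04 over all genes. Il12b was 3.31-fold lower with KCl (log2 fold change −1.73, 95% interval −2.32 to −1.14; edgeR, adjusted p = 0.0014) and Il12a 2.66-fold lower (−1.41, −1.92 to −0.91; adjusted p = 0.0018). Il27 was 1.93-fold lower (edgeR, adjusted p = 0.0011) and Tnf 1.39-fold lower (adjusted p = 0.0013), both with no overlap between the groups. Il6 had a log2 fold change of −0.63, with an adjusted p of 0.0825 from edgeR. It was called without KCl replicate 2 (−0.98, adjusted p = 0.0027), on library totals alone (−0.79, adjusted p = 0.0162) and without the low-count filter (−0.65, adjusted p = 1.3e-06). Ebi3 had a log2 fold change of −0.38 (adjusted p = 0.0318), which was not called without KCl replicate 2 (adjusted p = 0.0548) or without NaCl replicate 1 (0.188) or 2 (0.0993), from both groups alone (0.174), or with the slope covariate (−0.11, adjusted p = 0.846).

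These calls used the spread of all 11 C57BL/6J libraries. From the 5 KCl and NaCl libraries alone no member passed, with adjusted p of 0.0677 for Tnf and 0.0668 for the other 3, and over all genes 8 passed. With the slope covariate Il12a was at −0.83 (adjusted p = 0.387) and Il12b at −1.05 (adjusted p = 0.361), while Tnf and Il27 were still called. In that fit Il6 was at −2.13 and was called lower, which it was not in the reported fit.

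**Figure D3:**
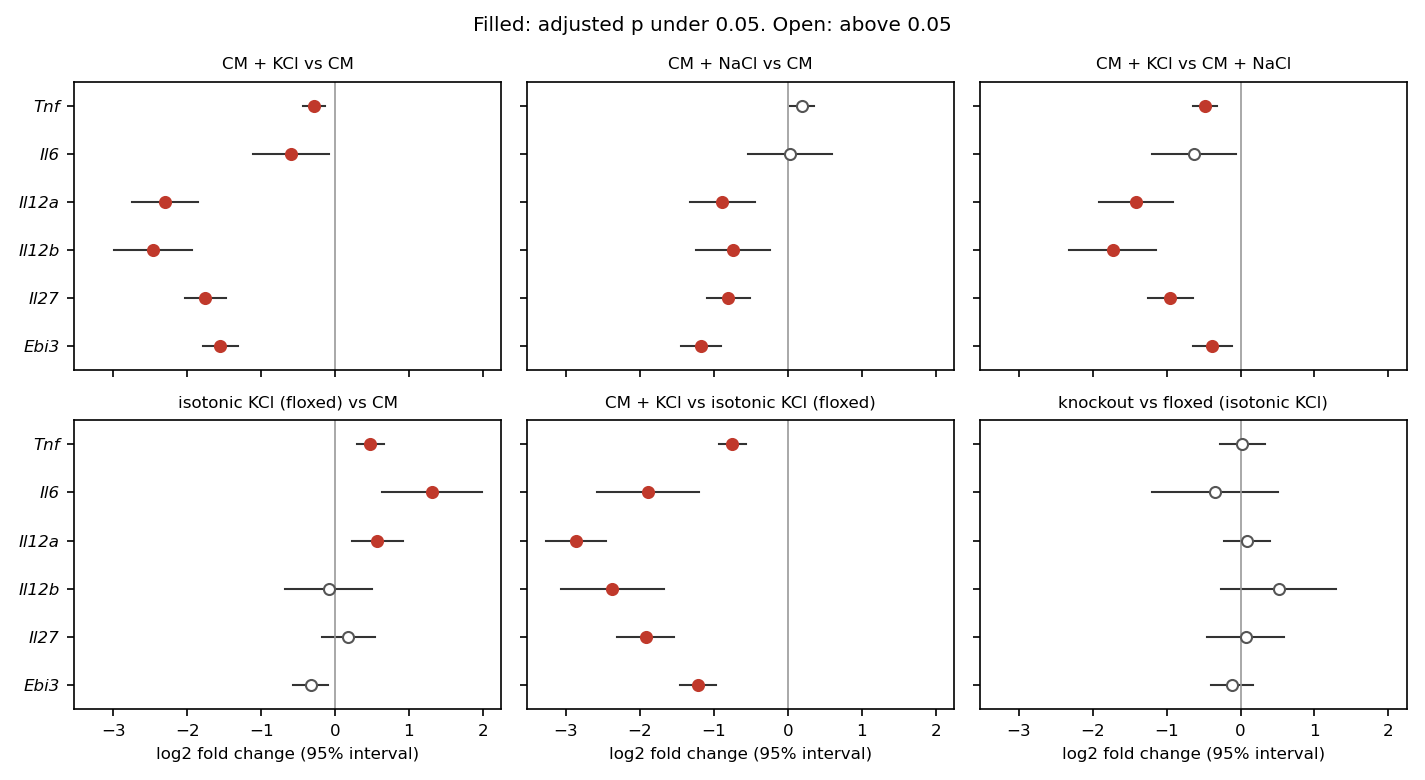
Log2 fold change (x axis) with its 95% interval for 5 members and Ebi3 in 6 comparisons (CM, conditioned medium), with filled points where the adjusted p was under 0.05. In KCl against conditioned medium Il12b is at −2.47 and Tnf at −0.28, and in knockout against floxed cells all intervals include 0.

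In floxed cells given isotonic KCl, Il12a, Il12b and Il27 were not called lower than in conditioned medium. Il12a was at 18.3, 19.6 and 21.2 CPM, above every conditioned medium library. Il12b was at 12.4, 6.17 and 6.31 CPM and Il27 at 23.0, 36.7 and 30.8 CPM, both overlapping conditioned medium. Ebi3 was at 87.6, 85.0 and 97.8 CPM, below every conditioned medium library. Tnf was at 3401, 3937 and 3742 CPM and Il6 at 135, 366 and 243 CPM, both above all C57BL/6J libraries. In these comparisons treatment, strain and preparation cannot be told apart.

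Against conditioned medium, all 6 members passed the filter of the fit over 17 libraries and 3 were called higher, where 8.2% of 14676 genes were called higher (7.09% lower and 15.3% in either direction). The medians were 0.33 over the members and −0.01 over all genes. Tnf had a log2 fold change of 0.48 ± 0.08 (SE; edgeR, adjusted p = 0.0017), Il6 of 1.31 ± 0.32 (adjusted p = 0.0129) and Il12a of 0.57 ± 0.16 (adjusted p = 0.0295). Il12b was at −0.09 (95% interval −0.67 to 0.50), Il27 at 0.18 (−0.18 to 0.54), Il23a at −0.66 (−2.31 to 1.00) and Ebi3 at −0.33 (−0.57 to −0.09; adjusted p = 0.0583 with edgeR and 0.0298 with DESeq2). Ebi3 was also called lower on library totals (−0.50, adjusted p = 0.0189), with the stricter low-count filter (0.0489), with the replicate number as a block (0.0438) and with the slope covariate (0.0193). From the 6 libraries of both groups alone no member was called, with adjusted p of 0.056 for Tnf, 0.0796 for Il6 and 0.0644 for Il12a. The Il6 call was lost without floxed replicate 2 (0.93, adjusted p = 0.0712) or conditioned medium replicate 3 (0.0601), and with the slope covariate its log2 fold change was 0.59. The Il12a call was lost without floxed replicate 2 or 3 or any 1 of the 3 libraries in conditioned medium alone (adjusted p 0.0508 to 0.115), and on library totals (0.40, adjusted p = 0.128).

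Against isotonic KCl in floxed cells, KCl in C57BL/6J cells gave lower levels of 5 of 6 members, where 15.4% of 14676 genes were called lower (12.3% higher and 27.8% in either direction). The median was −1.91, against 0.00 over all genes. Il12a was 7.27-fold lower (log2 fold change −2.86, 95% interval −3.27 to −2.46; edgeR, adjusted p = 6.8e-08), Il12b 5.18-fold lower (adjusted p = 7.6e-05) and Il27 3.79-fold lower (adjusted p = 2.0e-06). Il6 was 3.72-fold and Tnf 1.68-fold lower, and Ebi3 2.32-fold lower. The groups did not overlap for any of these. Il23a, with 2, 1 and 8 counts in floxed cells, was at −0.55 (95% interval −2.50 to 1.41). The 5 calls were made under every alternative tried. The comparisons with conditioned medium and with isotonic KCl share the KCl or the conditioned medium libraries, so they are not independent of each other.

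In isotonic KCl no member was called different between Kcnj2 knockout and floxed cells. Of the 5 members tested 0 were called by edgeR, 0 had an unadjusted p under 0.05 and 0 were called by DESeq2, where edgeR called 2 of 12782 genes (0.0156%, with 0.00782% in each direction) over the whole table. Kcnj2 itself fell by 2.64 on the log2 scale (edgeR, adjusted p = 0.015). Lyz2 was not called, although it was at 7171 to 8376 CPM in the knockout and at 19813 to 24456 CPM in floxed cells. The lack of a call in this fit therefore does not show that a gene was unchanged. Il12a was at 20.05, 20.55 and 22.04 CPM in the knockout, overlapping floxed cells, and the 95% interval of its log2 fold change was −0.22 to 0.40. Tnf was at 4073, 3746 and 3404 CPM, also overlapping, with an interval of −0.28 to 0.33.

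The other members were less well bounded. Il27 was at 36.2, 33.8 and 24.6 CPM, with an interval of −0.46 to 0.59. Il12b was at 8.65, 12.8 and 14.0 CPM against 12.4, 6.17 and 6.31 CPM, with a log2 fold change of 0.51 (95% interval −0.26 to 1.29). Il6 was at 235, 206 and 144 CPM against 135, 366 and 243 CPM, with a log2 fold change of −0.34 (95% interval −1.19 to 0.50). Both overlapped between genotypes. With the length slope as a covariate Il6 was at −0.50 (adjusted p = 1.0e-05) and Il12b at 0.76 (adjusted p = 0.0046), in a fit of 6 libraries that called 1001 genes. Il23a had 5, 12 and 6 counts. The median over tested members was 0.07, against −0.00 over all genes.

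Il6 and Il12b varied with the length slope of the library. Within each treated group the library with the lowest slope had the most Il6 and the library with the highest slope the least: 366 and 135 CPM in floxed cells, 235 and 144 CPM in the knockout, and 96.4 and 39.4 CPM with KCl. Il12b went the other way in floxed cells, at 6.17 and 12.4 CPM, in the knockout, at 8.65 and 14.0 CPM, and in conditioned medium, at 7.02 and 9.95 CPM. With 3 libraries a group this is a description only.

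**Figure D4:**
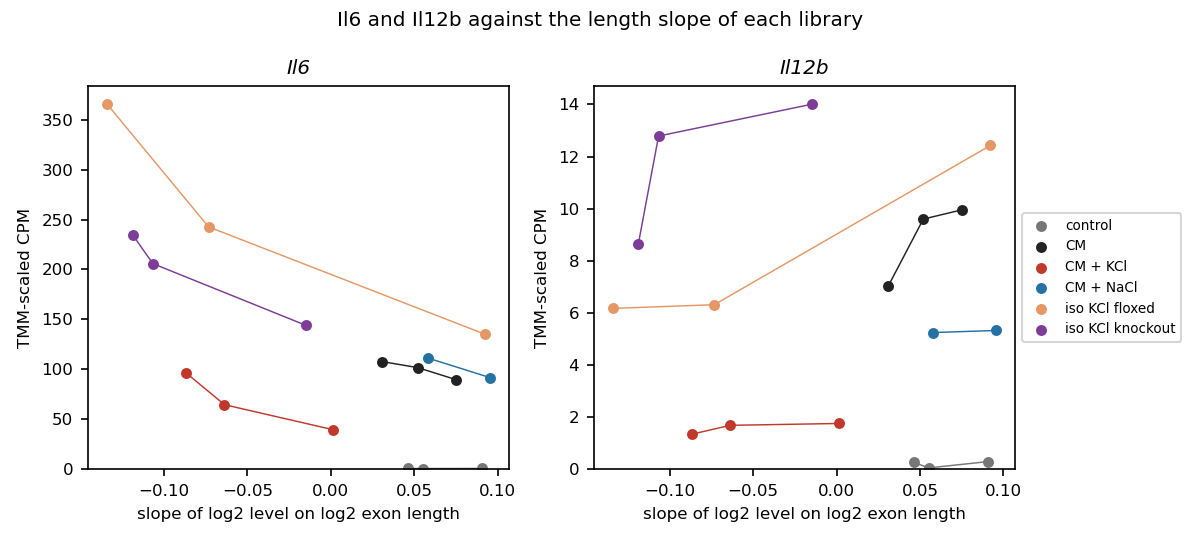
TMM-scaled CPM of Il6 (left) and Il12b (right) against the slope of log2 level on log2 exon length of each library, with libraries of a group joined by a line. In floxed cells Il6 goes from 366 CPM at a slope of −0.134 to 135 CPM at 0.0922, and Il12b from 6.17 to 12.4 CPM.

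In order of level, Tnf, Il6, Il12a, Il12b and Il27 were all lowest in control cells and next lowest with KCl. For Tnf the order then was conditioned medium, NaCl, and isotonic KCl in floxed and knockout cells, where only the last 2 neighbours overlapped. For Il12a it was NaCl, conditioned medium, floxed and knockout cells, and again only the last 2 overlapped. For Il27 the order was the same, with conditioned medium, floxed and knockout cells overlapping. For Il12b it was NaCl, floxed, conditioned medium and knockout, of which the last 3 overlapped. Il6 with KCl overlapped conditioned medium, which overlapped NaCl, and the isotonic groups lay above. For Il23a every neighbouring pair overlapped.

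Of 7 receptor genes tested, 2 rose and 1 fell in conditioned medium, where 53.5% of all genes were called (27.2% higher and 26.4% lower), and 2 rose and 3 fell with KCl (53.9% of all genes, 26.6% higher and 27.4% lower). Tnfrsf1b, which encodes TNF receptor 2, rose in conditioned medium from 512 to 538 CPM to 2725 to 2767 CPM (log2 fold change 2.38 ± 0.11, SE; edgeR, adjusted p = 6.2e-10). It rose further with KCl, to 3718, 4840 and 3292 CPM (0.51 ± 0.11, SE; adjusted p = 0.0012; 0.19 and not called with the slope covariate). Tnfrsf1a, which encodes TNF receptor 1, rose from 138, 132 and 149 CPM to 201, 204 and 206 CPM in conditioned medium (adjusted p = 6.1e-04; 0.20 and not called on library totals alone) and fell to 128, 107 and 148 CPM with KCl (−0.68 ± 0.10, SE; adjusted p = 1.0e-04).

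Il6ra, the ligand-binding chain of the IL-6 receptor, fell in conditioned medium and again with either salt. It went from 84.9, 84.7 and 82.1 CPM in control to 27.1, 28.2 and 28.6 CPM in conditioned medium, a log2 fold change of −1.59 ± 0.10 (SE; edgeR, adjusted p = 8.0e-09). With KCl it fell again to 7.05, 9.10 and 6.63 CPM (−1.90 ± 0.11; adjusted p = 2.3e-08) and with NaCl to 7.81 and 8.35 CPM (−1.78 ± 0.12; adjusted p = 4.2e-07). The salts did not differ beyond their spread for Il6ra (KCl against NaCl −0.12, 95% interval −0.40 to 0.16). In floxed cells with isotonic KCl it was at 17.003 to 17.6 CPM, between conditioned medium and the salts.

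Il6st, the shared signalling chain gp130, was at 48.2 to 51.2 CPM in conditioned medium, 54.9, 62.3 and 66.4 CPM with KCl (0.28 ± 0.09, SE; edgeR, adjusted p = 0.0164) and 68.5 and 71.8 CPM with NaCl (0.50 ± 0.10; adjusted p = 0.0019). The KCl call was lost on library totals alone (0.07), without the low-count filter, from the libraries of both groups alone, and without conditioned medium replicate 1 (adjusted p = 0.0598). Il12rb1 and Il12rb2, the IL-12 receptor chains, were at or under 2.50 CPM in every library and were not called in these comparisons. Il23r had at most 1 count in a library and was not tested. Il27ra was at or under 2.02 CPM, and its lower level with KCl (adjusted p = 0.0276) was no longer called without KCl replicate 1 or 2 or conditioned medium replicate 1 or 2 (adjusted p 0.0522 to 0.0886), or with the slope covariate (−0.67, adjusted p = 0.505). No receptor gene was called in the knockout.

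**Figure D5:**
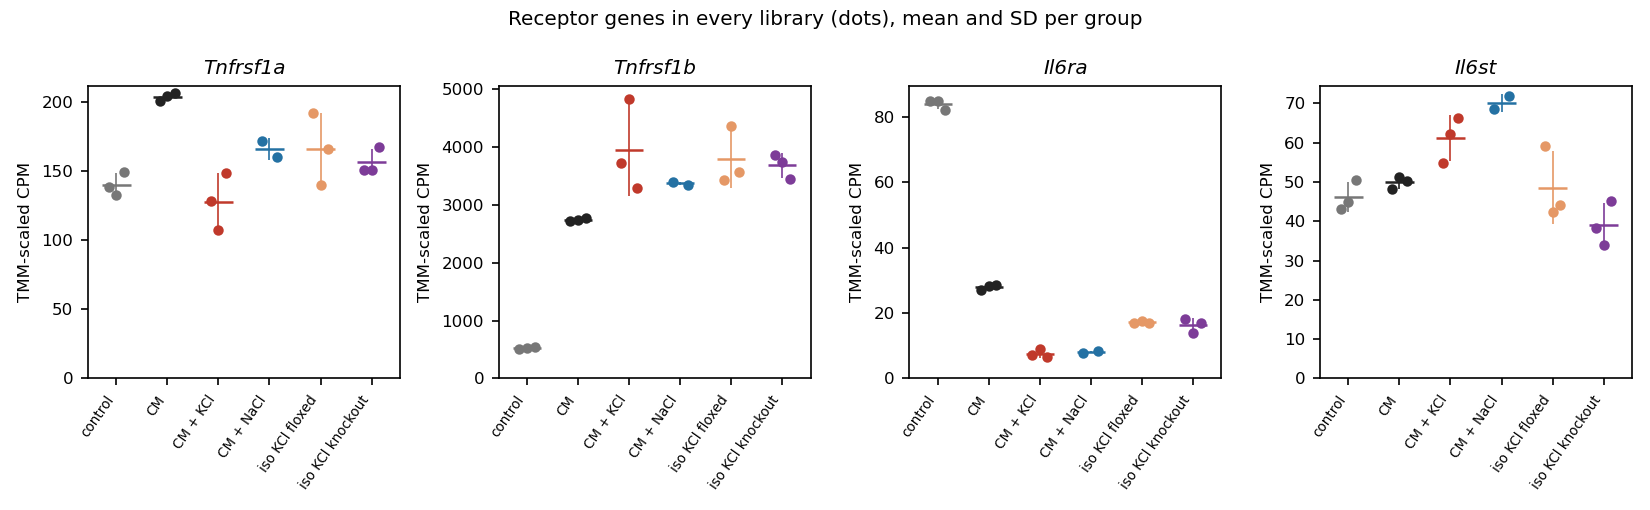
TMM-scaled CPM (y axis, from 0) of 4 receptor genes in each library (dots) by group, with the group mean and SD. Il6ra drops from 82.1 to 84.9 CPM in control cells to 6.63 to 9.10 CPM with KCl, and Tnfrsf1b rises to 2725 CPM or more in all treated groups.

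Other genes of the pathways were taken from lists of their known components. In conditioned medium 27.2% of all genes were called higher and 26.4% lower (53.5% in either direction). In conditioned medium, 10 of 12 genes of the TNF receptor signalling complex rose and 0 fell (median log2 fold change 1.07). They included the feedback inhibitors Tnfaip3 (4.33) and Nfkbia (3.27) and the caspase-8 inhibitor Cflar (2.77). Of 8 JAK-STAT genes 7 rose and 1 fell, led by the suppressors Socs3 (6.31) and Socs1 (4.10) and the kinase Jak2 (2.13). Of 16 transcriptional regulators of these cytokines 13 rose and 1 fell, led by Nfkbiz (4.03), a co-regulator of Il6 and Il12b, Batf (3.70) and Nfkb1 (1.81).

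For TNF release, the sheddase gene Adam17 (1.46) and its trafficking partner Rhbdf2 (1.89) rose in conditioned medium, and Timp3 (−1.08), whose product inhibits the sheddase, fell. Of 11 regulators of mRNA stability 6 rose and 2 fell, against 53.5% of all genes called, among them Mapkapk2 (2.80) and Zfp36 (1.16), which encodes a protein that destabilises Tnf mRNA, while Zfp36l1 fell by 2.47 on the log2 scale. Among other ligands of the IL-6 family Lif rose (1.02) and Il11 fell by 5.93. Of 12 tested TNF superfamily ligands 4 rose and 5 fell, led by Tnfsf9 (3.18), Tnfsf15 (3.58) and Tnfsf12 (−0.89).

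With KCl, 6 of 8 JAK-STAT genes fell and 1 rose (median −0.90), where 27.4% of all genes fell and 26.6% rose (53.9% in either direction). Socs3 fell by 2.13 and the IL-12 receptor kinase gene Tyk2 by 1.04 on the log2 scale. Both were also lower with KCl than with NaCl, at −0.92 and −0.86, although neither was called from the KCl and NaCl libraries alone (adjusted p = 0.0668 for each) or with the slope covariate (Socs3 −0.43, adjusted p = 0.210; Tyk2 −0.54, adjusted p = 0.0502). Transcriptional regulators were split, with 7 of 16 higher and 6 lower: Atf3 rose (1.01) while Cebpd fell by 1.30 and Irf8 by 0.74. Zfp36 fell by 0.95, and the genes for the RNA-binding proteins Roquin-1 and Roquin-2 rose (Rc3h1, 1.78; Rc3h2, 0.88).

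Of the TNF receptor complex 4 of 12 genes rose and 6 fell with KCl, against 53.9% of all genes called, with Tab2 (0.92) and Ripk1 (0.73) higher and Ikbkg (−0.82) lower. Rhbdf2 rose (0.48) and Timp3 fell by 0.71, though neither was called with the slope covariate. Lif fell by 1.95 and Clcf1 rose (0.47), but was not called on library totals alone (0.25) or with the slope covariate (0.13, adjusted p = 0.663). Of 12 TNF superfamily ligands 5 rose and 0 fell, among them Tnfsf4 (1.86), Tnfsf18 (4.35, and 5.59 without conditioned medium replicate 2) and Tnfsf11 (1.63; 0.81 and not called with the slope covariate). In the knockout, 0 genes of any of these pathway lists were called by edgeR.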

How the data were processed

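Total RNA of 17 libraries was sequenced. The authors deposited raw counts per Ensembl gene identifier, and these were analysed as they stand. Aligner, counter, build and strand setting: not given in the sources used here. The submitters' processing notes name DESeq2 1.30.1 without a role. Symbols, positions and exon lengths came from GENCODE M21 on GRCm38. Of the 55401 identifiers, 28418 were at 0 in every library and 260 had no annotation.

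Differences were tested by edgeR 4.0.16 (R 4.3.3), with its quasi-likelihood F test, robust dispersions, TMM factors and filterByExpr. The fits took the 11 C57BL/6J libraries (14519 genes), the 6 isotonic libraries (12782) or, for comparisons across these, all 17 (14676). P-values were adjusted by Benjamini-Hochberg over all genes of a comparison, at a threshold of 0.05. SE and 95% intervals belong to the unshrunk log2 fold change. The test was run on simulated counts for KCl against conditioned medium and for knockout against floxed cells. These counts had the same dispersion for all genes and libraries and no length slope. The real libraries differed in both, so the run does not show how the test behaves on them. Intervals on pooled counts cover counting error only.

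The labels do not say that replicates were separate animals or cultures. The p-values therefore describe only how these samples spread, which may be technical. Whether the replicate numbers stand for a shared batch or culture was not settled. For C57BL/6J libraries the closest match carried the same number in 18 of 30 cases, and for isotonic libraries in 1 of 6. The reported fits did not use the numbers, and a fit with them as a block was among the alternatives. No 2 replicates agreed within sampling noise. The members and lists were chosen with earlier results of these data known. Named are all members, their receptors, Ebi3 and up to 3 genes per other list with the smallest p, given for conditioned medium and KCl and, for JAK-STAT genes, for KCl against NaCl; 1 such gene is not reported here. Alternatives were DESeq2 1.42.0, other scaling factors, other low-count filters, a replicate block, fits of both groups alone, a length covariate and leaving out each library.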

Additional observations from a re-analysis of the deposited data

How the results depend on the processing

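On library totals without scaling factors, 24.85% of called genes were higher in conditioned medium against control, against 50.75% with TMM, and the median of all genes moved from −0.04 to −0.37. The same split went from 49.26% to 32.61% for KCl, from 47.97% to 36.98% for NaCl, from 48.64% to 30.1% for KCl against NaCl and from 53.63% to 26.09% for isotonic KCl against conditioned medium, and no called member changed direction. The count of members called was 5 for NaCl against conditioned medium with the length slope as a covariate, and 1 to 3 when leaving out 1 library. From both groups alone it was 0 for KCl against NaCl and 0 for isotonic KCl against conditioned medium, where leaving out 1 library gave 1 to 3. For knockout against floxed cells the slope covariate gave 2. With the replicate number as a block, Il12b in NaCl against conditioned medium was at −0.62 (adjusted p = 0.0557), the only member call the block changed. Same-number residuals correlated above 0.1 in 4 of 15 pairs of C57BL/6J libraries and 1 of 3 isotonic pairs. For pairs with different numbers this was 0 of 30 and 3 of 6. The best match had the same number in 18 of 30 C57BL/6J cases and 1 of 6 isotonic cases. A fit of both groups alone is the reported fit for the knockout, and plain CPM leaves ratios as they are, so neither was run.

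These values changed sign under an alternative. Il6 in NaCl against conditioned medium was at −0.035 on library totals, at −0.15 with the replicate block, and at −0.11 to 0.16 when leaving out 1 library. In the knockout comparison Tnf was at −0.022 and Il27 at −0.048 with the slope covariate, and leaving out 1 library gave −0.041 to 0.072 for Tnf, −0.64 to 0.042 for Il6 and −0.0997 to 0.23 for Il27. In isotonic KCl against conditioned medium Il12b was at 0.27 and Il27 at −0.15 with the slope covariate, Il27 was at −0.00398 on library totals, and Il12b was at −0.51 to 0.094 when leaving out 1 library. Il23a in KCl against isotonic KCl was at −1.10 to 0.70 when leaving out 1 library, and Tnfrsf1a in KCl against NaCl, called lower in the reported fit, was at 0.021 with the slope covariate. With the longest transcript as length the ratio of Il12b to Il12a in conditioned medium was 0.45 and that of Il12a to Tnf 6.28 per 1000. The cause was not tested for any of these. Over all genes the slope covariate called 4749 in place of 7830 for KCl, 195 in place of 4591 for KCl against NaCl, 6638 in place of 4076 for KCl against isotonic KCl and 1001 in place of 2 for the knockout. From both groups alone 6245 in place of 4161 were called for NaCl, 8 for KCl against NaCl, 411 in place of 2245 for isotonic KCl against conditioned medium and 1218 in place of 4076 for KCl against isotonic KCl. For the knockout DESeq2 called 122 genes, library totals 3, no filter 12 and the block 0. At 0 to 12 counts in every library, Il23a is limited by depth.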

Other observations

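The genes most alike to each member were picked by Pearson's r of log2(CPM + 1) over the 17 libraries. Candidates were 8664 protein-coding genes that averaged 10 CPM or more in some group. The values are a description only, since the gap between control and treated libraries enters each r. For Tnf the most alike genes were Ccl3 (0.999), a chemokine gene, Clec4e (0.999), a pattern-recognition receptor gene, and Adora2a (0.998). For Il6 they were H2-M2 (0.994), the chemokine gene Ccl4 (0.990) and Cept1 (0.990). For Il27 they were the co-stimulatory receptor gene Cd40 (0.993), Clec5a (0.992) and the growth factor gene Csf3 (0.992). For Il12a they were Agtrap (0.993), Mfsd7a (0.991) and the scavenger receptor gene Msr1 (0.987). For Il12b they were Riox2 (0.978), Lcp1 (0.975) and Trmt61a (0.974). For Il23a the highest values were lower, at 0.771 for Becn1, 0.765 for Cnot9 and 0.750 for Arhgdia. Among the members themselves r was highest for Tnf with Il6 (0.980) and Il12a with Il27 (0.972), and was 0.963 for the IL-12 subunit pair Il12a and Il12b.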
